A study of Rattus norvegicus with 12 samples.

Results

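The state of organotypic brain cultures 3 days after their entorhino-hippocampal axons were cut is described here, from the 4 arrays that carry this time point in their titles, of 12 arrays in all. Co-cultured slices of entorhinal cortex and hippocampus were grown for 15 days in vitro, and the connection between them was then cut along the whole interface with a tungsten knife. RNA of axotomized co-cultures, taken 3 days after the cut, was set on each array against RNA of non-axotomized co-cultures kept for the same time. There were 2 biological replicates, each hybridized on a pair of arrays with the dyes Cy3 and Cy5 exchanged. Day 1 and day 7 after the cut had the same layout, with 4 arrays each, and serve here for comparison and for the estimate of spread. The labels name Rattus norvegicus as the species and whole-genome rat oligonucleotide arrays, while the treatment protocol speaks of wild type mice, and the sources used here do not settle that conflict. A co-culture holds neurons and glia of both regions without blood flow, and it keeps the cut cells, the cells that lost their input and the cells at the knife track in 1 RNA sample.

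The entorhino-hippocampal pathway carries excitatory axons from the entorhinal cortex to the dendrites of granule and pyramidal cells of the hippocampus. Cutting it is a standard model of denervation and of failed axon regrowth in the central nervous system. In the days after such a cut, debris of axons and myelin is taken up by microglia, astrocytes change their gene expression, and precursor cells of the oligodendrocyte lineage can divide. Independently of injury, cells that lack amino acids or hold unfolded protein slow their protein synthesis through phosphorylation of the initiation factor eIF2, and the transcription factor ATF4 then raises genes of amino acid supply, an arrangement called the integrated stress response.

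Each array gave a log2 ratio of axotomized over non-axotomized co-cultures, a direction that is likely from how the arrays are titled and which channel comes first, and every sign turns if the deposited values run the other way. A value of 1 is a doubling and 0 is no difference. The medians of the day 3 arrays were -0.0137 and -0.0156 with axotomized RNA in Cy5 (replicates 1 and 2) and 0.0268 and 0.0203 with it in Cy3, so these arrays were centred close to 0. Gene by gene, the pair of arrays of replicate 1 had a Pearson's r of 0.335 over 14871 genes and that of replicate 2 had 0.475, and after averaging each pair, replicates 1 and 2 had 0.401. Between replicates, the Cy5 arrays (those with axotomized RNA in Cy5) had an r of 0.459 and the Cy3 arrays 0.490. Arrays of the same dye order had the same sign in more genes, 66.9% for Cy5 and 67.8% for Cy3, than the dye-swapped pair of 1 replicate, 51.7% for replicate 1 and 55.9% for replicate 2. Over all genes, the part of a ratio that turns with the dyes had a median size of 0.0515, and the mean ratio, in which it cancels, a median size of 0.0460. Over the genes that passed the test described next, which selects large mean ratios, these sizes were 0.0589 and 0.455. These are descriptions across genes, which are not independent. A replicate's value below is the mean of its pair of arrays, errors are SDs of the 2 replicates (n = 2), and the sources used here do not say how many cultures or animals a replicate holds, so p-values measure only the spread between these samples, which may be technical. The number of arrays limits the precision, and without signal intensities neither the presence of a cell type's markers nor the level of any gene could be checked.

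At day 3, 153 of 14871 genes passed limma's test (Benjamini-Hochberg adjusted p under 0.05 over all genes), which is 1.03% of them: 88 were higher (0.592%) and 65 lower (0.437%) in axotomized co-cultures. At an unadjusted p under 0.05, 1161 were higher (7.81%) and 985 lower (6.62%). All 153 had 1 sign on all 4 arrays. Of all genes, 12.6% lay above 0 and 10.4% below 0 on all 4 arrays. Counts in the gene lists below are to be read against these shares and those of genes that passed. In lists this small a share rests on few genes. Changes were moderate: the fold was 1.17 to 2.02 among genes that rose, with a median of 1.37, and 1.18 to 2.48 among genes that fell, with a median of 1.37. The genes that rose most included astrocyte, oligodendrocyte and matrix genes, and the genes that fell most included genes of the integrated stress response, interferon-stimulated genes and several secreted factors. Fewer cells of a type and less RNA per cell cannot be told apart in such mixed RNA. The count rests on all 6 replicates of the 3 days, which share 1 estimate of the spread: without either day 1 replicate 0 genes passed (1968 at an unadjusted p under 0.05), without day 3 replicate 1 or 2 there were 12 and 6, of which 2 and 0 were among the 153, and without either day 7 replicate 84, of which 70 were.

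**Figure D1:**
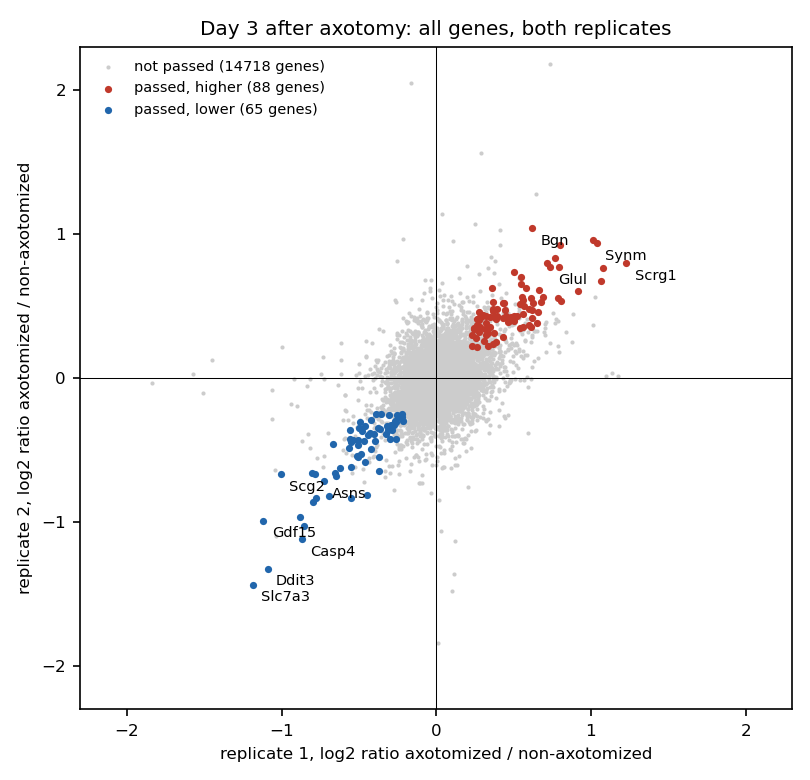
Log2 ratio of every gene in replicate 1 (horizontal axis) and replicate 2 (vertical axis) at day 3, with genes that passed limma's test higher in red (88), lower in blue (65) and all others in grey. The coloured genes lie along the diagonal on both sides of the centre, red ones above 0 and blue ones below 0 in both replicates. The plotted range is 2.3 each side of 0, and 1 gene, Sostdc1, lies outside it at 0.34 in replicate 1 and 2.57 in replicate 2.

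The genes of the integrated stress response lay on 1 side of 0. Of its 38 measured genes, all 38 lay below 0 at day 3, 33 of them on all 4 arrays (86.8%, against 10.4% of all genes), 16 fell in the test and 0 rose. The median was -0.38 over the list and 0.006 over all genes, and the list's median was -0.38 in replicate 1 and -0.40 in replicate 2. The list was drawn up with results of these arrays already known, so its direction is no independent evidence.

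Among the transcription factors of this pathway, Ddit3, which encodes CHOP, had the values -1.35, -0.83, -1.37 and -1.28 on the arrays in the order replicate 1 with axotomized RNA in Cy5 and in Cy3, then replicate 2 likewise. All 4 arrays were far below 0, and the array of replicate 1 with Cy3 was the least so. The mean was -1.21 ± 0.17, which is 2.31-fold lower (adjusted p = 0.0185). Atf4, the factor at the head of the response, had -1.05, -0.51, -0.75 and -0.58 in the same order, lower on both Cy5 arrays than on the Cy3 array of the same replicate. Its mean was -0.73 ± 0.082 (adjusted p = 0.0356 in limma's test). Atf5, a related factor that is translated when eIF2 is phosphorylated, had -0.65 in replicate 1 and -0.66 in replicate 2 (mean -0.66 ± 0.0048, adjusted p = 0.0232). Trib3, a pseudokinase induced by ATF4 and CHOP, had -1.04 and -1.10 and did not pass (adjusted p = 0.251), and it is named here after its values were seen, while Atf3, another factor of the list named in the same way, had -0.28 ± 0.017 (adjusted p = 0.596). Ppp1r15a encodes GADD34, which directs a phosphatase to eIF2 and so restarts protein synthesis. It fell by 0.49 ± 0.090 (adjusted p = 0.0255).

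Genes of amino acid supply on the same list fell as well. The transporters and enzymes named below as lower in the test are among the 16 genes of that list that fell. Slc7a3, a transporter of arginine and lysine, was the lowest gene of all that passed, at -1.42, -0.95, -1.40 and -1.47 on the 4 arrays. Its mean of -1.31 ± 0.18 is a 2.48-fold lower ratio (adjusted p = 0.0361). Slc7a1, a widely used transporter of the same amino acids, had -0.39 and -0.25 in replicates 1 and 2 (adjusted p = 0.0468), although only 1 of its 2 spots lay clearly below 0, at -0.67 against 0.023. Slc38a2, a glutamine and alanine transporter, had -0.31 and -0.26 (adjusted p = 0.0387). Of the list of 23 amino acid transporters, these 3 fell (13%, against 0.437% of all genes) and 1 rose (4.35%, against 0.592%). The 3 that fell are also counted in the stress response list, so they are no separate evidence. Slc7a10, an astrocytic carrier of serine and glycine, rose with 0.43 and 0.41 (adjusted p = 0.0387). The other 19 did not pass, and the list's median was -0.015.

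Asns, which makes asparagine, had -0.84, -0.62, -0.66 and -0.77 on the 4 arrays, and its replicates were almost equal at -0.73 and -0.72. The mean of -0.72 ± 0.0090 gave an adjusted p of 0.0232. Enzymes of serine and of mitochondrial one-carbon metabolism fell as well. Psph, the last enzyme of serine synthesis, had -0.37 and -0.65 (adjusted p = 0.0462), Shmt2, which passes a carbon from serine to folate in mitochondria, -0.62 and -0.63 (adjusted p = 0.0255), and Mthfd2, the next enzyme of that route, -0.51 and -0.54 (adjusted p = 0.0329). Pck2, the mitochondrial form of phosphoenolpyruvate carboxykinase, had -0.47 and -0.44 (adjusted p = 0.0232). The enzymes that load amino acids onto transfer RNA in the cytosol were a list of 18, all below 0 and 14 of them on all 4 arrays (77.8%), with a median of -0.22. Of these, Sars1 (seryl) had -0.55 and -0.84 and Nars1 (asparaginyl) -0.54 and -0.43, and both fell (adjusted p = 0.0468 and 0.0412), while the other 16 did not pass. Sars1 and Nars1 are also counted in the stress response list, so they are no separate evidence.

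Secreted products of the response were lower too. Gdf15, a stress-induced cytokine of the TGF-beta family, had -1.18, -1.05, -0.86 and -1.13 on the 4 arrays, with a mean of -1.05 ± 0.089 (adjusted p = 0.0208). Stc2, a secreted glycoprotein, had -0.36 and -0.25 (adjusted p = 0.0462). Both genes were below 0 on every array, Gdf15 further than Stc2. Outside the list, and named after their values were seen, Eif2s2, a subunit of eIF2 itself, had a mean of -0.42 ± 0.031 (adjusted p = 0.0232), Eif5, the factor that triggers hydrolysis of GTP on eIF2, -0.47 ± 0.055 (adjusted p = 0.0232) and Lonp1, a protease of mitochondria, -0.53 ± 0.055 (adjusted p = 0.0232). Eif2b3, a subunit of the complex that reloads eIF2 with GTP, was among the largest decreases at -0.55 and -0.62 (mean -0.58 ± 0.047, adjusted p = 0.0258).

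Chaperones of the endoplasmic reticulum, which fold secreted and membrane proteins, were all below 0 as well: 20 of 20 genes, 18 of them on all 4 arrays (90%), with a median of -0.31. Of these 20, 3 fell in the test. Dnajc3, a co-chaperone that also inhibits the eIF2 kinase PERK, had -0.65 and -0.68 (adjusted p = 0.0493), Dnajb9, a co-chaperone of BiP, -0.43 and -0.38 (adjusted p = 0.0255), and Herpud1, a membrane protein of the degradation machinery, -0.31 and -0.36 (adjusted p = 0.0455). The 2 abundant chaperone genes Hspa5, which encodes BiP, and Hsp90b1, which encodes GRP94, are named after their values were seen. Hspa5 had -0.83 in replicate 1 and -0.39 in replicate 2 (adjusted p = 0.096), and Hsp90b1 had -0.87 and -0.44 (adjusted p = 0.13). In both genes replicate 1 was further below 0 than replicate 2, and neither passed.

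**Figure D2:**
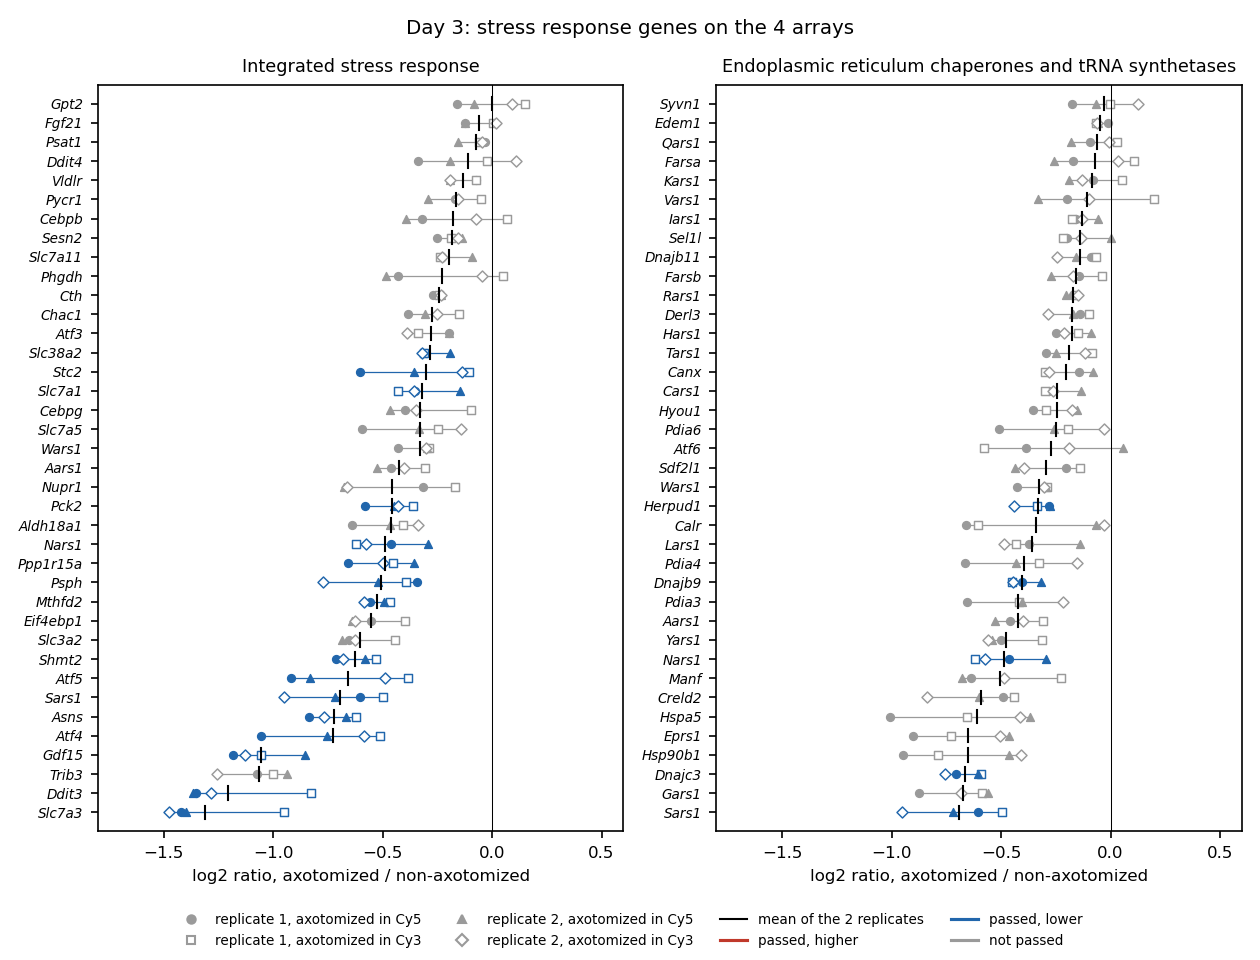
Log2 ratios at day 3 on each of the 4 arrays for the 38 genes of the integrated stress response and for the endoplasmic reticulum chaperones and cytosolic tRNA synthetases, with circles and squares for replicate 1, triangles and diamonds for replicate 2, filled for axotomized RNA in Cy5 and open for Cy3, a black tick for the mean and blue for genes that fell in the test. Nearly all points lie left of 0, from Slc7a3 and Ddit3 beyond -1 to genes close to 0.

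Short DNA elements near the start of these genes are shown because the group moved in 1 direction and because factors of this pathway are known to bind such elements. In the 250 bases upstream of each annotated start (RefSeq, rat build GRCr8), both strands were searched for the letters TGATGNAA, the core of the C/EBP-ATF response element bound by ATF4 and CHOP. They were also searched for the endoplasmic reticulum stress element, CCAAT and CCACG with 9 bases of any kind between them. None of the genes printed below holds both in exactly these letters, and other forms of the elements were not searched. The first was found in 9 of the 34 stress response genes that have a promoter entry (26.5%) and in 3.58% of 27457 genes in the table, but in only 3 of the 15 that fell (20%). The second was found in 7 of 16 chaperone genes with an entry (43.8%), among them Hspa5, Hsp90b1 and Dnajc3, and in 21 of the 27457 genes (0.0765%). A match describes the letters only and is neither a binding site nor a cause. No match says only that these letters are not in this window. The lists hold known genes of these responses, so a high share can follow from how a list was made and says nothing about day 3. The 250 upstream bases are printed 5′ to 3′ on the gene's strand, with the match in capitals, for 4 genes that fell. Slc7a1 and Pck2, of the stress response list, hold the first element, and Nars1, the third such gene, is not printed. Herpud1, of the chaperone list, also holds the first element, as the only 1 of 16 genes there (6.25%). Dnajc3 holds the second. Slc7a1 lies on the plus strand (chr12:11664238-11664487, match from -30 to -23 relative to the start), Pck2 on the plus strand (chr15:32997603-32997852, match in reverse from -239 to -232), Herpud1 on the minus strand (chr19:10614708-10614957, match in reverse from -184 to -177) and Dnajc3 on the plus strand (chr15:102432417-102432666, match from -133 to -115).
Slc7a1: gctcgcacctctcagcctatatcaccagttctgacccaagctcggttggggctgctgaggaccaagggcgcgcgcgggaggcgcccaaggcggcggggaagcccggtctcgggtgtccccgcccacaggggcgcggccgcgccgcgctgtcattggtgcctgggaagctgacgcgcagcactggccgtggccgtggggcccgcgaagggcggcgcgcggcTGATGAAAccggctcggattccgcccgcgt
Pck2: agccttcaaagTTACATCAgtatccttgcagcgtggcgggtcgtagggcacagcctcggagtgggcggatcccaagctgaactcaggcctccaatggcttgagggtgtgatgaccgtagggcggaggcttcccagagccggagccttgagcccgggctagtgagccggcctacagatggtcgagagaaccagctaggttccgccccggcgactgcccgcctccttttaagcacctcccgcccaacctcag
Herpud1: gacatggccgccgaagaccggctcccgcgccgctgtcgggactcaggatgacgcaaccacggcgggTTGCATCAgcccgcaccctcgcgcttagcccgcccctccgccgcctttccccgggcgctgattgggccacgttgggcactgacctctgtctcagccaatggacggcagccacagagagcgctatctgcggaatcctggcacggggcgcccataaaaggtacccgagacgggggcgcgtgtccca
Dnajc3: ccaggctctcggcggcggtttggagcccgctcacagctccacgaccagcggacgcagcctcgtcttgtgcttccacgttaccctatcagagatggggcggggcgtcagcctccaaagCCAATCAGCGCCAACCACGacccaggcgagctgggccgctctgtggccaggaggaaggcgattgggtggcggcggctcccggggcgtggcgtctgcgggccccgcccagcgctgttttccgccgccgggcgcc

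Interferon-stimulated genes tended to lie below 0. Of 39 measured, 27 were below 0, 21 of them on all 4 arrays (53.8%) and 1 was above 0 on all 4, with a median of -0.092. The 3 that fell were Ifi27l2b, Isg15 and Ifit2. Ifi27l2b, of a family of small interferon-induced membrane proteins, had -0.94, -0.82, -0.92 and -1.01 on the 4 arrays (mean -0.92 ± 0.061, adjusted p = 0.0136), but its spots disagreed, with 1 at -1.95 and the other at 0.10. Isg15, a ubiquitin-like protein attached to other proteins during antiviral responses, had -0.78 and -0.83 (adjusted p = 0.0434), and Ifit2, which binds viral RNA, -0.40 and -0.39 (adjusted p = 0.0232). Cxcl10, an interferon-induced chemokine, and Rsad2, an antiviral enzyme, are named after their values were seen and did not pass, at -0.55 ± 0.040 (adjusted p = 0.0517) and -0.35 ± 0.023 (adjusted p = 0.0519). The core of the interferon-stimulated response element, a repeat of GAAA with 2 bases of any kind between the copies, was found on either strand in 21 of the 31 genes of this list with a promoter entry (67.7%) and in 3.61% of all genes in the table. Isg15, Ifit2 and Ifi27l2b are among those with no entry, so none of the 21 genes with a match passed the test. A list of interferon-stimulated genes can be rich in this element by how it was made, so the share says nothing about day 3.

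Single genes of other lists fell while their lists did not lie below 0 as a whole. Casp4, an inflammatory caspase that senses bacterial lipopolysaccharide inside cells, had -0.95, -0.78, -1.08 and -1.16 on the 4 arrays. Its mean of -0.99 ± 0.18 is 1.99-fold lower (adjusted p = 0.0232), and it was the only member of 32 caspase and Bcl2 family genes that passed, a list with 16 genes above and 16 below 0. Lgals3, a galactose-binding lectin of phagocytes, had -0.80 and -0.86 (adjusted p = 0.0255), the only 1 of 26 genes of activated phagocytes that passed. That list had 16 genes above and 10 below 0, 7 above and 5 below on all 4 arrays, a median of 0.064 and its highest value in Spp1 (0.55). Hmox1, which breaks down heme, had the list's lowest value, -0.84 ± 0.29 and did not pass (adjusted p = 0.0504), and it is named after its value was seen. Of 36 neurotrophic factors and receptors, 25 of them above 0 (median 0.040), only Cntf passed. Cntf, a survival factor of neurons and oligodendrocytes that is made by astrocytes, had -0.83, -0.88, -0.84 and -1.22 on the 4 arrays (mean -0.94 ± 0.12, adjusted p = 0.0259). Of 23 granin and neuropeptide genes, 15 of them above 0 (median 0.070), only Scg2 passed, which encodes the precursor of the peptide secretoneurin, with -1.004 and -0.668 (adjusted p = 0.0416).

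Some further genes fell singly. Cyp4b1, a cytochrome P450 that oxidizes fatty acids, had -0.69 and -0.82 (adjusted p = 0.0136), with its 2 spots at -0.85 and -0.67. Abcb1a, the drug efflux pump of the blood-brain barrier, had -0.80 and -0.66 (adjusted p = 0.0232), the only 1 of 28 endothelial and barrier genes that passed (list median 0.010), while the endothelial marker Pecam1 had 0.15 and 0.11 (adjusted p = 0.287). Mgmt, which repairs alkylated guanine in DNA, had -0.45 and -0.81 (adjusted p = 0.0468). Gadd45a, induced by DNA damage and by stress, had -0.67 and -0.45 (adjusted p = 0.0494), the only 1 of 28 regeneration-associated genes that passed (list median 0.029). In that list the growth cone gene Gap43 had 0.011 ± 0.031 and Sprr1a 0.052 ± 0.044 (adjusted p = 0.925 and 0.606), both named after their values were seen.

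Most astrocyte markers lay above 0 and several rose. Of 20 markers of resting astrocytes 18 lay above 0, 12 of them on all 4 arrays (60%, against 12.6% of all genes), 4 rose, 0 fell, and the median was 0.25. Glul, glutamine synthetase, which turns glutamate taken up at synapses into glutamine, had 0.78, 0.69, 0.70 and 0.84 on the 4 arrays. The arrays were close to each other, and the mean was 0.75 ± 0.023 (adjusted p = 0.0136), but of its 3 spots 2 were near 1.19 and 1.06 and 1 at 0.010. Gjb2 and Gjb6 encode connexins, the channel proteins of gap junctions that couple astrocytes. Gjb2 had 0.84, 0.69, 0.74 and 0.93 (mean 0.80 ± 0.048, adjusted p = 0.0164) and Gjb6 had 0.47, 0.31, 0.32 and 0.50 (mean 0.40 ± 0.016, adjusted p = 0.0232). Aqp4, the water channel of astrocyte endfeet, had 0.26 and 0.41 in replicates 1 and 2 (adjusted p = 0.0468). Members that did not pass, named after their values were seen, were Aldoc, a glycolytic enzyme of astrocytes, at 0.70 and 0.38 (adjusted p = 0.0962), and Gja1, the main connexin of astrocytes, at 0.52 and 0.25 (adjusted p = 0.147). Slc1a3, a glutamate transporter also named afterwards, had 0.00013 and -0.0062, so not all astrocyte genes shared the direction.

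Genes of reactive astrocytes did not follow as a group and were split in direction. Of 25, 11 lay above 0 and 14 below, and the median was -0.012. On all 4 arrays 6 lay above and 7 below 0 (24% and 28%, against 12.6% and 10.4% of all genes). Only A2m, a protease inhibitor that binds cytokines, rose, with 0.80 and 0.93 (adjusted p = 0.0232). Gfap, the intermediate filament used as the standard sign of astrocyte reaction, had 0.056 and -0.079 (mean -0.012 ± 0.10, adjusted p = 0.98). Of 15 intermediate filament genes 1 rose: Synm, which encodes synemin and assembles with vimentin and GFAP, had 1.20, 0.88, 0.93 and 0.94 on the 4 arrays (mean 0.99 ± 0.072, adjusted p = 0.0185). Vim and Nes, filament genes of immature astrocytes named after their values were seen, had -0.10 ± 0.25 (adjusted p = 0.735) and -0.23 ± 0.38 (adjusted p = 0.47). Scrg1, a small secreted protein found in brain, had the highest mean of all genes that passed, with 1.50, 0.96, 0.86 and 0.74 (mean 1.01 ± 0.30, adjusted p = 0.0356), and replicate 1 was above replicate 2.

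Most genes of the oligodendrocyte lineage lay above 0 as well. Of 24 genes of oligodendrocytes and myelin 22 lay above 0, 17 of them on all 4 arrays (70.8%), 3 rose and 0 fell, and the median was 0.22. Bcas1, which marks oligodendrocytes that are starting to make myelin, had 1.27, 0.89, 0.79 and 0.74 on the 4 arrays (mean 0.92 ± 0.22, adjusted p = 0.0361), and its 3 spots had means of 0.48, 0.92 and 1.36. Apod, a lipid carrier, had 1.07 and 0.67 (adjusted p = 0.0416), and Gpr37, a receptor of the lineage, 0.78 and 0.56 (adjusted p = 0.0298). Replicate 1 was above replicate 2 in all 3 genes. Mbp, the main myelin protein gene, had 0.61 and 0.25 and did not pass (adjusted p = 0.37). Enpp2, which makes the lipid lysophosphatidic acid and is also a gene of the choroid plexus, is named after its values were seen: it had the highest mean of the list, with 0.65 and 1.28, and did not pass (adjusted p = 0.0632).

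Among 10 genes of oligodendrocyte precursors, 8 lay above 0, 4 of them on all 4 arrays (40%), and 2 rose. Sox10, the transcription factor of the lineage, had 0.69 and 0.57 (adjusted p = 0.0432), and Pdgfra, the growth factor receptor of precursors, 0.50 and 0.74 (adjusted p = 0.0468). Pdgfra is also made by meningeal fibroblasts, and the matrix gene Mgp, expressed by such cells and named after its values were seen, had -0.16 in replicate 1 and 2.05 in replicate 2 (adjusted p = 0.455). The part of such cells in the Pdgfra value was not tested. Outside the lists, Tspan2, a membrane protein of oligodendrocytes, had 0.56 ± 0.14 (adjusted p = 0.0255) and Padi2, an enzyme that converts arginine in myelin protein, 0.32 ± 0.018 (adjusted p = 0.0386), both named after their values were seen.

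**Figure D3:**
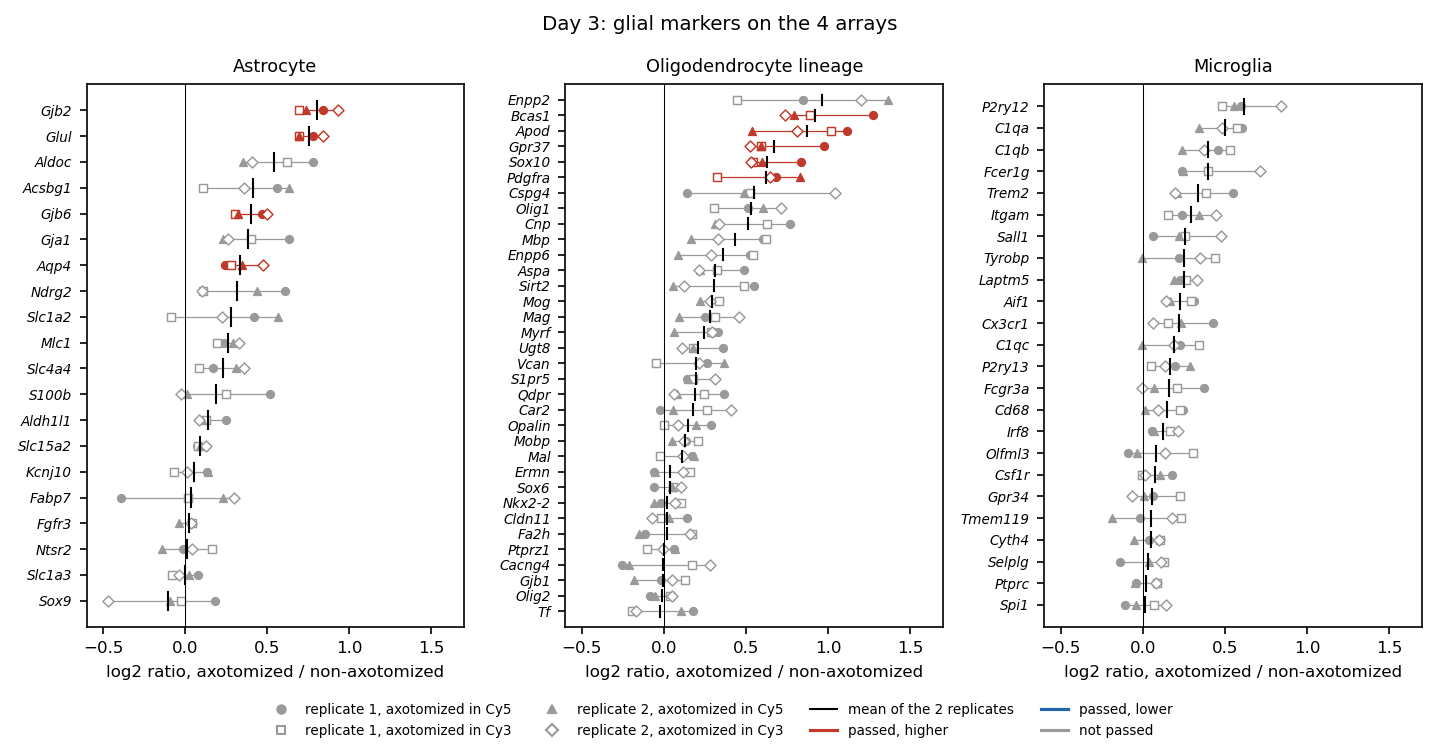
Log2 ratios at day 3 on each of the 4 arrays for markers of resting astrocytes, of the oligodendrocyte lineage (precursors and myelin) and of microglia, with the same symbols for replicates and dyes, a black tick for the mean and red for genes that rose in the test. Most points lie right of 0 in all 3 panels, with 4 red astrocyte genes, 5 red oligodendrocyte lineage genes and no red microglia gene.

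The listed microglia markers were above 0 without passing. All 24 markers had a mean above 0, 13 of them on all 4 arrays (54.2%), with a median of 0.18. Of the list 0 passed limma's test, which 1.03% of all genes passed. Slc2a5, a fructose transporter of microglia outside the list and named after its values were seen, rose with 0.32 ± 0.053 (adjusted p = 0.0416). The list's members with the smallest p were C1qb, a chain of the complement starter C1q, with 0.49 and 0.30 (adjusted p = 0.0651), Trem2, a receptor for lipids of debris, with 0.46 and 0.20 (adjusted p = 0.0898), Laptm5, a lysosomal protein, with 0.24 and 0.26 (adjusted p = 0.121) and Itgam, the integrin CD11b, with 0.20 and 0.39 (adjusted p = 0.123). Aif1, the marker IBA1, had 0.30 and 0.15 (adjusted p = 0.487), and Tmem119, named after its values were seen, 0.11 and -0.0065. In the list of complement and antigen presentation 18 of 24 genes lay above 0, 12 on all 4 arrays (50%), and 0 passed. C1r, the protease of the C1 complex, had 0.33 and 0.35 (adjusted p = 0.119), and its inhibitor gene Serping1 0.16 ± 0.021 (adjusted p = 0.13). Of 32 cytokines and chemokines 1 rose (3.12%, against 0.592% of all genes): Cxcl12, which guides cells through the receptor CXCR4, had 0.58 and 0.63 (adjusted p = 0.0232). A pair of receptors of inflammation outside that list rose and are named after their values were seen: C5ar1, the receptor of complement C5a, with 0.50 ± 0.080 (adjusted p = 0.0494), and Tril, which assists Toll-like receptors in astrocytes, with 0.57 ± 0.072 (adjusted p = 0.0329).

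Proteoglycan, protease and guidance lists each gave some increases, 6.06, 8.11 and 5.26% of their members against 0.592% of all genes. These lists were chosen with earlier results of these data known. On all 4 arrays 33.3, 32.4 and 15.8% of members lay above 0 (12.6% of all genes). Below 0 on all 4 lay 9.09, 10.8 and 1.75% (10.4% of all genes). Bgn (biglycan) and Ogn (osteoglycin), small leucine-rich proteoglycans, were the 2 of 33 proteoglycan and tenascin genes that rose, Bgn with 0.62 and 1.04 (adjusted p = 0.0372) and Ogn with 0.39 and 0.48 (adjusted p = 0.0232). A further list, of 29 collagen and fibroblast genes, had 2 that rose (6.9%) and 1 that fell (3.45%, against 0.437% of all genes). On all 4 arrays 41.4% of it lay above 0 and 6.9% below, and its median was 0.034 in replicate 1 and 0.16 in replicate 2. Its genes that rose were Ogn and Loxl1, an enzyme that cross-links elastin, with 0.30 and 0.43 (adjusted p = 0.0462). Igfbp2, which binds insulin-like growth factors, fell with -0.50 and -0.55 (adjusted p = 0.0361). Beside A2m, the protease inhibitors Serpine2, which blocks thrombin, with 0.62 and 0.47 (adjusted p = 0.0372), and Wfdc1, with 0.43 and 0.52 (adjusted p = 0.0232), rose out of 37 extracellular proteases and inhibitors. Of 57 guidance and growth inhibition genes 3 rose: Plxnb3, a semaphorin receptor of oligodendrocytes, with 0.50 and 0.41 (adjusted p = 0.0361), Ephb1, an ephrin receptor, with 0.29 and 0.43 (adjusted p = 0.0468), and its ligand family member Efnb1 with 0.33 and 0.23 (adjusted p = 0.0468). None of the 57 fell in the test, and the list's median was 0.022.

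Genes of choroid plexus epithelium differed strongly between the replicates. Ttr, which encodes the thyroid hormone carrier transthyretin, had 0.73 in replicate 1 and 2.18 in replicate 2 (adjusted p = 0.293). Sostdc1, Kcnj13 and Otx2, named after their values were seen, had 0.34, 0.29 and 0.11 in replicate 1 and 2.57, 1.56 and 0.96 in replicate 2. Over the whole list of 20, 11 genes were above 0 on all 4 arrays (55%) and 1 below, and the list's median was 0.10 in replicate 1 and 0.16 in replicate 2. In the test 1 gene of this list rose and 1 fell: Msx1, a homeobox factor, had 0.55 and 0.66 (adjusted p = 0.0232), and Igfbp2, described above, -0.50 and -0.55 (adjusted p = 0.0361). Among genes that rose, Bgn, Pdgfra, Loxl1, Ephb1 and Aqp4 were also higher in replicate 2, by smaller gaps than Ttr. These genes were picked after their values were seen, with no count of such genes. Genes of other kinds, such as A2m, Gjb2 and Crabp2, were higher in replicate 2 as well, while Scrg1, Synm and Bcas1 were higher in replicate 1. The part of choroid plexus in these changes was not tested.

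None of the listed neuronal markers passed the test. Only 1.03% of all genes passed, so a count of 0 in lists of this size says little about neurons. Of 26 neuron markers 5 were above and 4 below 0 on all 4 arrays (19.2% and 15.4%, against 12.6% and 10.4% of all genes). Their median was 0.031 and 0 passed. Slc17a6, the vesicular glutamate transporter VGLUT2, had -0.21 and -0.14 (adjusted p = 0.13), Calb1, the calcium buffer calbindin, -0.21 ± 0.050 (adjusted p = 0.212), Eno2, neuronal enolase, -0.28 ± 0.11 (adjusted p = 0.376), and Stmn2, a tubulin regulator of growth cones, 0.067 ± 0.017 (adjusted p = 0.454). Rbfox3, the nuclear marker NeuN, had -0.11 in replicate 1 and 0.10 in replicate 2 (adjusted p = 0.986). None of 25 glutamate and GABA receptor genes passed either, the smallest p being that of Grm3, a metabotropic glutamate receptor, with 0.20 and 0.46 (adjusted p = 0.0965). Of 28 immediate early genes, which neurons switch on with activity, 20 lay above 0, 9 on all 4 arrays (32.1%), and 0 passed. Among them Egr1 had 0.44 and 0.34 (adjusted p = 0.169) and Homer1, a scaffold of glutamate receptors, 0.28 and 0.37 (adjusted p = 0.104).

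In energy and lipid metabolism the lists lay on different sides of 0. Of 28 genes of glycolysis and hypoxia 24 lay below 0, 12 on all 4 arrays (42.9%, against 10.4% of all genes). The median was -0.094, and 0 passed. Vegfa, the vascular growth factor, had -0.40 and -0.27 (adjusted p = 0.0555) and Pgk1, a glycolytic kinase, -0.19 ± 0.056 (adjusted p = 0.0945). Of 20 cholesterol synthesis genes 15 lay below 0, 9 on all 4 arrays (45%), and 0 passed, with Sqle, squalene epoxidase, at -0.36 and -0.26 (adjusted p = 0.0717). Of 32 genes of fatty acid metabolism 3 rose (9.38%, against 0.592% of all genes) and 0 fell. Acot1, which releases fatty acids from coenzyme A, rose with 0.92 and 0.61 (adjusted p = 0.0372). Angptl4, an inhibitor of lipoprotein lipase, had 0.28 and 0.32 (adjusted p = 0.0412), and Cpt2, which passes fatty acids into mitochondrial oxidation, 0.37 and 0.24 (adjusted p = 0.0468). Outside the list, 3 genes whose products lie in peroxisomes rose and were picked after their values were seen, with no count of other such genes: Crot, a carnitine acyltransferase, by 0.53 ± 0.046 (adjusted p = 0.0416), Pxmp2, a membrane channel, by 0.48 ± 0.18 (adjusted p = 0.0434) and Abcd3, a fatty acid transporter, by 0.44 ± 0.039 (adjusted p = 0.029). Cyp4f1, a P450 that inactivates leukotrienes, rose with 0.56 and 0.35 (adjusted p = 0.0416).

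The remaining lists held few calls. Of 40 cell cycle genes 34 lay above 0, 19 on all 4 arrays (47.5%, against 12.6% of all genes), with a median of 0.084. Only Ckap2, a spindle protein, rose (2.5% of the list, against 0.592% of all genes), with 0.39 and 0.25 (adjusted p = 0.0452). In the Wnt pathway Axin1, a scaffold of the complex that degrades beta-catenin, had 1.00, 0.59, 0.81 and 0.73 on the 4 arrays (mean 0.78 ± 0.020, adjusted p = 0.0164). Sfrp1, a secreted Wnt inhibitor, had 0.28 and 0.40 (adjusted p = 0.0372). These were the 2 of 36 that rose (5.56%). Of 11 genes of the dystrophin complex, which ties astrocyte endfeet to the basal lamina, only Sspn (sarcospan) rose (9.09%), with 0.72 and 0.80 (adjusted p = 0.0232). None of 22 cytosolic heat shock genes passed, and Cryab, a small heat shock protein of glia, had -0.60 and -0.50 (adjusted p = 0.0533). The other large increases were Tmem255b, a membrane protein, with 1.02 and 0.96 (adjusted p = 0.0136), Plekhb1, a membrane-associated protein, with 0.80 and 0.54 (adjusted p = 0.0375), Fam89a with 0.67 and 0.61 (adjusted p = 0.0372), Crabp2, which carries retinoic acid to the nucleus, with 0.55 and 0.70 (adjusted p = 0.0416) and Gatm, the first enzyme of creatine synthesis, with 0.67 and 0.53 (adjusted p = 0.0372). In all, 60 of the 153 genes belong to 1 or more of the 35 lists and 93 to none.

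**Figure D4:**
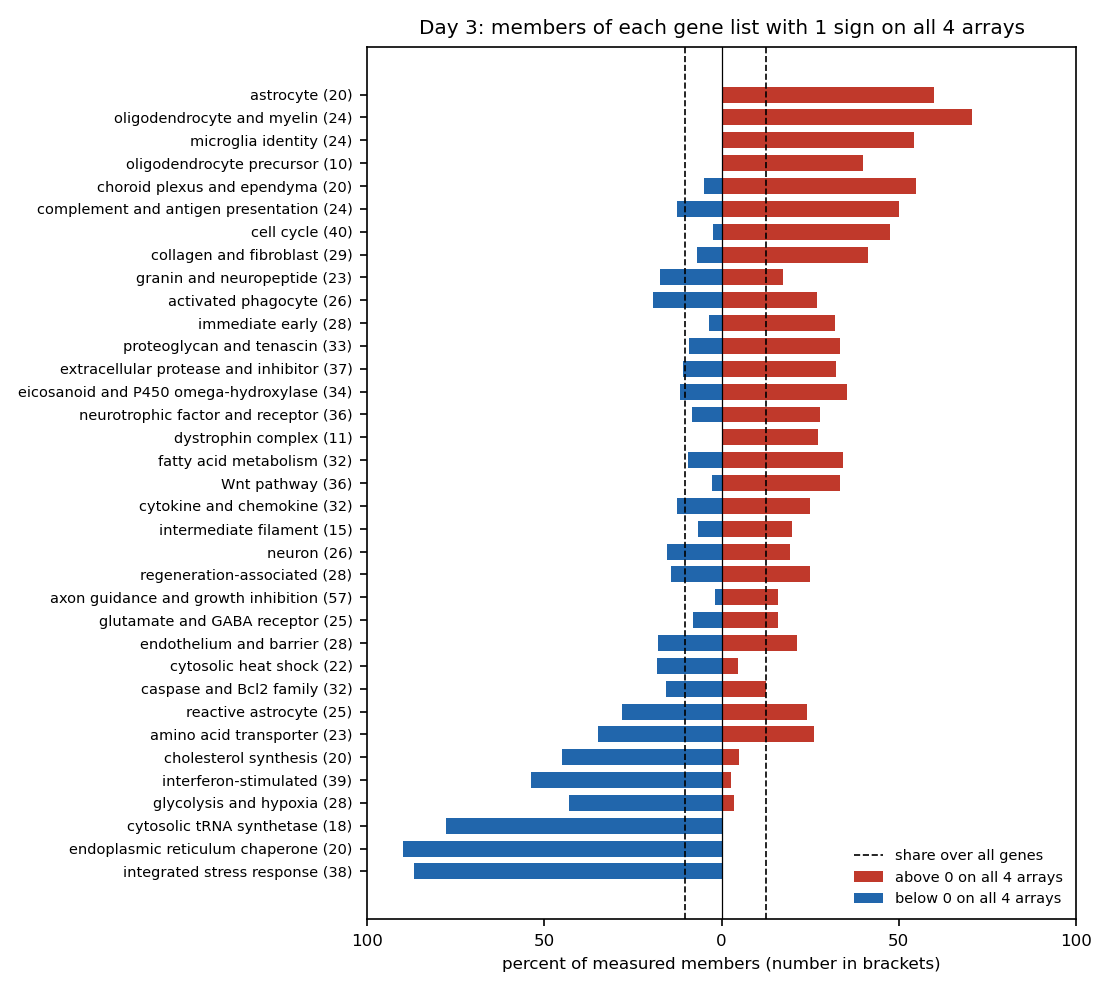
Share of each list's measured members that lay above 0 (red) or below 0 (blue) on all 4 day 3 arrays, in percent, with dashed lines at the shares of all genes, 12.6% above and 10.4% below. The endoplasmic reticulum chaperones, the integrated stress response and the tRNA synthetases reach 90, 86.8 and 77.8% below 0, and the myelin, astrocyte and microglia lists 70.8, 60 and 54.2% above 0.

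Day 3 was set against the other days in the same fit. Between day 3 and day 7, 53 of 14871 genes differed (0.356%), 28 with a higher ratio at day 3 (0.188%) and 25 with a lower one (0.168%). Of the 88 genes that rose at day 3, 23 also differed from day 7, and of the 65 that fell, 19 did. Among genes of the stress response, Ddit3 had -1.21 ± 0.17 at day 3 and 0.24 ± 0.15 at day 7, a difference of -1.44 (adjusted p = 0.0412), Atf4 had -0.73 ± 0.082 at day 3 and 0.36 ± 0.23 at day 7 (difference -1.09, adjusted p = 0.0446), and Asns had -0.72 ± 0.0090 at day 3 and 0.25 ± 0.075 at day 7 (difference -0.97, adjusted p = 0.0429). In these genes both replicates lay below 0 at day 3 and above 0 at day 7, and the list's median was -0.38 at day 3 and 0.040 at day 7. Scg2, Casp4 and Ifi27l2b also had lower ratios at day 3, with differences of -1.40, -1.11 and -0.85 (adjusted p = 0.0447, 0.0447 and 0.0412).

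The highest difference in the other direction was that of Spp1, which encodes osteopontin, a secreted protein of phagocytes. It had 0.37 and 0.73 at day 3 and -1.11 and -0.73 at day 7, and the replicates of the 2 days did not overlap (difference 1.47, adjusted p = 0.0447), although its day 3 value alone did not pass (adjusted p = 0.107). Tmem255b, Synm, A2m, Plekhb1 and Msx1 followed with differences of 1.30, 1.11, 1.10, 1.00 and 0.96 (adjusted p from 0.0412 to 0.0454). Ttr, with large and uneven ratios at both times, had 1.46 ± 1.02 at day 3 and -2.17 ± 0.54 at day 7 and did not pass (adjusted p = 0.12). The number of genes that differed from day 7 depended on single replicates: it was 0 without either day 1 replicate or without day 3 replicate 2, 3 without day 3 replicate 1, 1 without day 7 replicate 1 and 19 without day 7 replicate 2.

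Between day 3 and day 1, 0 genes differed in limma's test (smallest adjusted p 0.0655), with 1316 at an unadjusted p under 0.05. Many genes that passed at day 3 had the same sign at day 1. The test that chose them used 1 spread shared by the 3 days, so genes with close replicates at day 1 and day 7 passed more easily. Agreement between the replicates of those days is thereby raised in the chosen genes. The shares of all genes given beside them were not chosen in this way, so the counts are a description only. Of the 65 genes that fell at day 3, 54 were below 0 in both replicates of day 1 and 8 above 0 in both, where 26% of all genes were below 0 in both. Of the 88 that rose, 55 were above 0 in both replicates of day 1 and 18 below, where 35.5% of all genes were above. At day 7, 18 of the 65 were below 0 in both replicates and 33 above, and 21 of the 88 were above 0 in both and 45 below, where 31.7% of all genes were above 0 in both and 27.5% below. The median of the 88 genes was 0.078, 0.45 and -0.064 at days 1, 3 and 7, and that of the 65 was -0.20, -0.46 and 0.038.

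Single lists had different courses over the days. Medians at days 1, 3 and 7 were -0.32, -0.38 and 0.040 for the integrated stress response and -0.22, -0.31 and 0.061 for the chaperones. They were 0.033, 0.25 and -0.012 for astrocyte markers, -0.044, 0.22 and 0.14 for myelin genes, and 0.14, 0.18 and -0.10 for microglia markers. The cell cycle list had 0.34, 0.084 and -0.0013 and cholesterol synthesis -0.30, -0.043 and 0.16. Among single genes, Cryab had -0.55 ± 0.070 at day 3 and 0.94 ± 0.12 at day 1, Cntf -0.94 ± 0.12 at day 3 and 0.25 ± 0.26 at day 1, and Isg15 -0.81 ± 0.040 at day 3 and 0.21 ± 0.040 at day 1, and for none of them did the difference between the days pass (adjusted p = 0.0655, 0.0914 and 0.15).

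**Figure D5:**
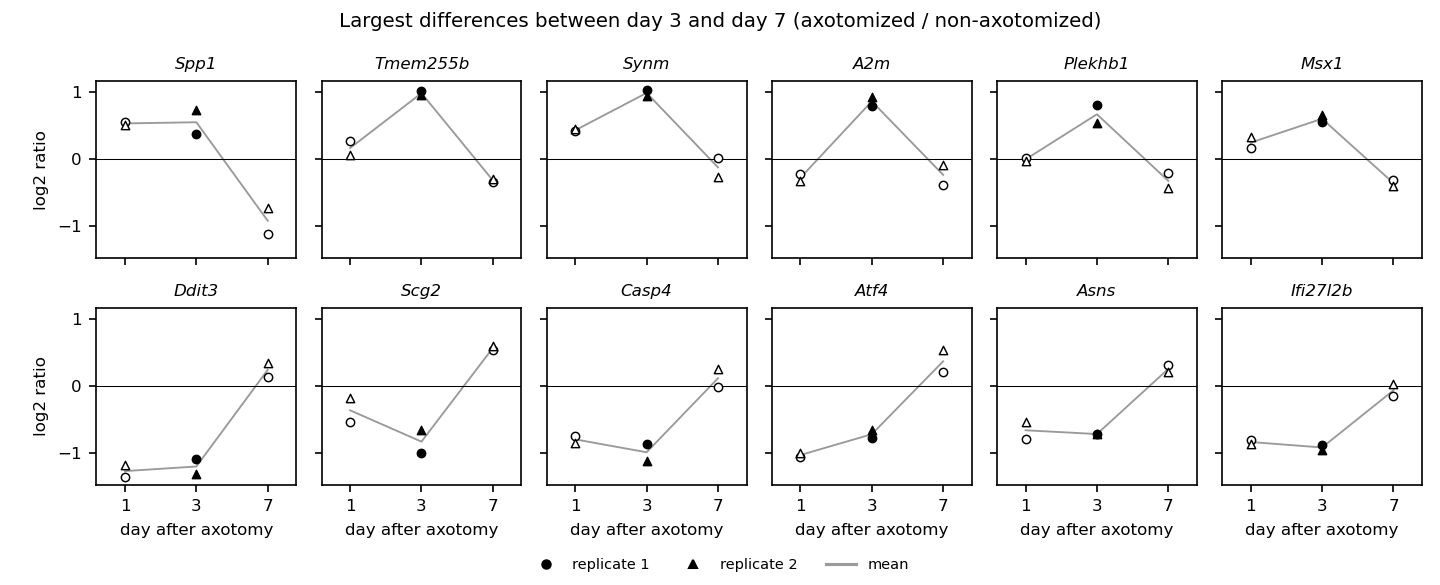
Log2 ratios of both replicates at days 1, 3 and 7 (horizontal axis) for the 6 genes with the largest positive and the 6 with the largest negative difference between day 3 and day 7, with lines through the means. Ddit3, Atf4 and Asns are below 0 at days 1 and 3 and above 0 at day 7, and Synm, Tmem255b and A2m are highest at day 3.

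A test of single spots, 44290 in all, gave 45 calls (0.102%), 27 higher and 18 lower. Of these, 28 carry 1 gene name, 17 none, and 25 belong to a gene that passed. Of the 57 genes that passed and have 2 or more spots, 52 had all spots on 1 side of 0, but the spots of a gene differed widely in size, with a median range of 0.354. In some genes 1 spot lay near 0, as in Ifit2 with -0.71 and -0.080 and, named after its values were seen, Eepd1 with 0.50 and 0.039. The other 5 were Ifi27l2b, Slc7a1, Slc13a3, Slc41a1 and Srebf1, named because of this disagreement. Slc13a3, a carrier of dicarboxylates, had 0.44 ± 0.014 (adjusted p = 0.0232), with spots at 0.94 and -0.056. Slc41a1, a magnesium carrier, had 0.31 ± 0.016 (adjusted p = 0.0361), with spots at 0.67 and -0.043. Srebf1, a transcription factor of lipid synthesis, had -0.49 ± 0.031 (adjusted p = 0.0361), with spots at -0.78, -0.69 and 0.0062. The SDs are between replicates and do not cover this spread between spots.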

How the data were processed

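RNA of axotomized and non-axotomized co-cultures was measured on 2-colour arrays, and the values are the authors' deposited log2 ratios for 44290 spots, from the series' values. Limma is the one tool named, per the submitters' processing notes. The sources used here do not give the authors' background correction, normalization or base of the logarithm; base 2 follows limma's convention, and spots were not filtered for dim signal because no intensity was used here. Gene names come from GEO's platform annotation, with 23535 spots of 1 symbol, 48 of several and 20707 of none. Spots with 1 symbol were averaged per symbol (14871 genes) after averaging the 2 dye-swapped arrays of a replicate.

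Groups follow the labels. The 6 replicate values per gene, 2 for each of the 3 days, entered a fit by limma 3.58.1 (R 4.3.3, with data.table, version 1.17.8), with 1 coefficient per day tested against 0 and contrasts between days, two-sided, with Benjamini-Hochberg adjustment over all genes, adjusted p under 0.05, 3 residual and 2.72 prior degrees of freedom. Single spots were fitted in the same way. The script was tested on simulated data. Promoters, 250 bases upstream, come from RefSeq (GRCr8), and Python 3.11.15, pandas 2.3.3 and matplotlib 3.10.9 were used for motifs and figures. Named genes are the 20 largest increases and the 20 largest decreases among genes that passed with 1 sign on all 4 arrays, every member of a list that passed (otherwise up to 4 with the smallest p), up to 6 per direction for each difference between days, and the markers Gfap, Mbp, Aif1, Rbfox3, Pecam1 and Ttr; a gene named beyond this is said to be. The members and the 35 lists were chosen with earlier results of these data known. Alternatives covered the mean of spots, normalization, scaling, dyes, technical arrays, the replicate number, the fit's samples, the variance estimate and single replicates.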

Additional observations from a re-analysis of the deposited data

Results flagged for a closer look

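Genes were singled out where the ratio at day 3 differed from that at day 7 in limma's contrast of the 2 days, which 53 genes did. The 6 largest positive differences, day 3 minus day 7 on the log2 scale, were 1.47 for Spp1 (osteopontin), 1.30 for Tmem255b, 1.11 for Synm (synemin), 1.10 for A2m, 1.00 for Plekhb1 and 0.96 for Msx1. The 6 largest negative ones were -1.44 for Ddit3 (CHOP), -1.40 for Scg2, -1.11 for Casp4, -1.09 for Atf4, -0.97 for Asns and -0.85 for Ifi27l2b. For all of these genes except Synm, Casp4 and Ifi27l2b, the 2 days lay on opposite sides of 0 in both replicates. Groups of 2 replicates are too small for a check on single outlying samples.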

How the results depend on the processing

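The number of genes that passed at day 3 (153, with 57.5% of them higher) was within 1.5 times that value with the median of spots (153), scaled arrays (162), arrays with axotomized RNA in Cy3 only (125), spots of a large dye part left out (153) and a robust variance (142). It was 75 after quantile normalization (46.7% higher, 55 shared with the 153), 298 with axotomized RNA in Cy5 only (41.3% higher), 0 with day 3 fitted alone, and 1064 and 958 with the 12 arrays in a random block, without and with a dye term. With the replicate number as a block (replicate block) it was 66, of which 57 were among the 153, with 47% higher; same-numbered replicates deviated together with r of 0.257 (days 1 and 3), -0.0677 (days 1 and 7) and 0.0140 (days 3 and 7); the labels give them no shared culture or batch, and whether they share one was not tested. Without 1 replicate the count was 0 to 84, with fewer samples in the estimate of spread. The 53 genes that differed from day 7 became 0 with the replicate block, 4 and 16 with axotomized RNA in Cy5 or Cy3 only, 917 and 832 in the random block without and with a dye term, and 0 to 19 without 1 replicate. The 0 genes that differed from day 1 became 91 after quantile normalization, 389 and 290 in the random block without and with a dye term, 2 with Cy5 only and 0 to 4 without 1 replicate. The 45 spots became 133 after quantile normalization, 28 scaled, 0 with the replicate block or day 3 alone, 2304 and 2005 in the random block without and with a dye term, 1545 and 1224 with Cy5 or Cy3 only, 95 without spots of a large dye part, 9 with a robust variance and 0 to 140 without 1 replicate. The cause of these changes was not tested. Of the 106 genes named by rule, the 68 that passed kept their direction under all 17 alternatives. These 68 had 1 sign on all 4 day 3 arrays, which the alternatives reuse, so their direction was nearly fixed in advance. With day 3 fitted alone none of the 68 passed. Of the 38 that did not pass, 2 turned: Rbfox3 was 0.0052 with Cy5 only and ran from -0.11 to 0.099 without 1 replicate (0.099 without day 3 replicate 1), and Gfap was 0.060 with Cy3 only and ran from -0.079 to 0.056 (0.056 without day 3 replicate 2). Without intensities, signal over background could not be assessed.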

Other observations

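Genes in none of the lists, named after their values were seen, held further changes at day 3. Among the decreases, Hspa9, the main chaperone of mitochondria, had -0.40 ± 0.13 (adjusted p = 0.0468), Pitrm1, a mitochondrial protease, -0.33 ± 0.012 (adjusted p = 0.0376), and Optn, an autophagy receptor, -0.46 ± 0.048 (adjusted p = 0.0232), in limma's test with n = 2 replicates. Pla2g7, the enzyme that inactivates platelet-activating factor, had -0.46 ± 0.14 (adjusted p = 0.0468). Among the increases, Pink1, a kinase that marks damaged mitochondria, had 0.45 ± 0.038 (adjusted p = 0.0468), Stat5a, a transcription factor of cytokine receptors, 0.34 ± 0.042 (adjusted p = 0.0416), and Gsdmd, the pore-forming protein cut by inflammatory caspases, 0.48 ± 0.059 (adjusted p = 0.0394). Gsdmd and Casp4, whose products act in 1 pathway, thus had opposite signs, since Casp4 had -0.99 ± 0.18. Trh, the precursor of thyrotropin-releasing hormone, had 0.49 ± 0.16 (adjusted p = 0.0372), and Slc2a5, a fructose transporter of microglia, 0.32 ± 0.053 (adjusted p = 0.0416).

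The spot without a listed gene that changed most in the test of single spots had 1.37 in replicate 1 and 1.02 in replicate 2 (mean 1.19, adjusted p = 0.0488 over all spots), and the one that fell most had -1.12 and -0.999 (mean -1.06, adjusted p = 0.0488). No gene was assigned to either here.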
